A study of Mus musculus with 53 samples.

Results

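The comparison described here sets tumours with whole genome doubling (WGD+) against tumours without it (WGD-) 8 days after the cells were placed in the mouse. Its members are the 6 RNA-seq libraries whose titles name day 8, 3 of each genotype, out of 53 libraries in the series. All 6 tumours grew from TA3 Hauschka cells, a mouse mammary tumour line used in a WGD- and a WGD+ form, in the inguinal mammary fat pad of female A/J mice aged 6 weeks, which have an intact immune system. Cells were injected in Matrigel, and the labels give the collection day as the only treatment. They do not say how the WGD+ form was made, how many clones stand behind each form, or whether the libraries of a group came from separate animals, so the p-values below measure the spread between libraries. The 6 libraries of the same experiment collected at day 14, again 3 of each genotype, serve for comparison. Groups of both genotypes from other experiments are also used, under isotype antibody in A/J mice and under vehicle in A/J and NSG mice. NSG is an immunodeficient host, and the labels give an age of 6 weeks for these groups as well.

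Whole genome doubling duplicates every chromosome of a cell at once. It is common in tumours, and doubled cells tend to lose chromosomes afterwards, so that a doubled line can carry lower relative doses of single chromosomes. Interferons, the messengers of the antiviral and antitumour response, act through STAT transcription factors on promoters with short motifs and switch on antigen presentation, guanylate-binding proteins (Gbp genes) and immunity-related GTPases. Low oxygen acts through HIF on a different motif and switches on glucose uptake, glycolysis and blood vessel growth.

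The promoters of 5 genes on which the results turn are printed here because the interferon and hypoxia genes described below carry different motifs in them. They are RefSeq sequences on GRCm38.p6, plus strand, 5′ to 3′, from the 250 bases before the gene's RefSeq start. GENCODE exons reach into some of these windows, so they are cut to hold at most 10 exon bases, as those of Gbp5, Gbp3 and Slc2a1 do. Capitals mark the core of the interferon-stimulated response element (GAAANNGAAA) and the gamma-activated site (TTCNNNGAA) in the Gbp genes, and the core of the hypoxia response element (ACGTG) in Slc2a1 and Car9, each on either strand. Of Car9 only 30 bases around the motif are shown, all of them before the RefSeq start but inside a GENCODE exon.
Gbp5, chr3:142496684-142496909: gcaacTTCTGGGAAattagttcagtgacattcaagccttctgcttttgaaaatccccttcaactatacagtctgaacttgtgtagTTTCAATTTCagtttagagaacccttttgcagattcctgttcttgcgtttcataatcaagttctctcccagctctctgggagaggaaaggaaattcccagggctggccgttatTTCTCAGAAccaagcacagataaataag
Gbp3, chr3:142559794-142560035: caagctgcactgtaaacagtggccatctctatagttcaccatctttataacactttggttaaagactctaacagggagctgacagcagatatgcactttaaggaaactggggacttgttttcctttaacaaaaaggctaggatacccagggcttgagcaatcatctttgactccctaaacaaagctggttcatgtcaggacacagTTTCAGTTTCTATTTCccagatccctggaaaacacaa
Gbp2b, chr3:142594597-142594846: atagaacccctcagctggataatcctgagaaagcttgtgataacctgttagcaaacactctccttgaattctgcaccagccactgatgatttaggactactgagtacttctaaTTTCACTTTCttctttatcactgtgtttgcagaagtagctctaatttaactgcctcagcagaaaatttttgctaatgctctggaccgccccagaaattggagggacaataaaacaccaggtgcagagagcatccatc
Slc2a1, chr4:119108495-119108720: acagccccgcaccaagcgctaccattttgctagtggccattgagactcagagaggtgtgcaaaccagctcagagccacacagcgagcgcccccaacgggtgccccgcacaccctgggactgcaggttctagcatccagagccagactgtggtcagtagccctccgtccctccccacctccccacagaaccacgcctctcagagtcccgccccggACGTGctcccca
Car9, chr4:43506996-43507025: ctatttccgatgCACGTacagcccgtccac

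In the 250-base windows of the interferon-gamma list used below, the interferon-stimulated core was present in 10 of the 13 tested genes that have a window, against 3.32% of the 10544 tested genes with one. It was present in 9 of 53 genes called higher in WGD+ (17.0%) and 11 of 302 called lower (3.64%), in 7 of 16 genes of the type I interferon list and in 1 of 12 of the hypoxia list. The gamma-activated site was present in 6 of 13 interferon-gamma genes, against 7.13%. The hypoxia core was present in 10 of 12 hypoxia genes and 2 of 13 interferon-gamma genes, against 24.6% of tested genes, 27.2% of those called lower and 28.3% of those called higher. The lists were chosen as known targets, and a match describes letters, not binding.

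The libraries held 5.25 to 12.1 M (mega) assigned reads, and 1 read was worth 0.0837 to 0.185 CPM (counts per mega-count of the library). Values are log2(CPM + 1) throughout, so that a difference of 1 is a doubling for a well expressed gene and less for a low one. Every library expressed the epithelial markers of the tumour, with a summed level of the keratin and epithelial list of 1442 to 2646 CPM. In bulk tissue, fewer cells of a type and less RNA per cell cannot be told apart.

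Before the comparison, the genotype labels were checked against a score made from another experiment, the vehicle-treated tumours in the immunodeficient host titled NSG, whose full strain name in the labels also lists IL3, CSF2 and KITLG transgenes. The score is the mean of 41 genes that were higher in WGD+ there minus the mean of 121 genes that were lower, called and at least 1 apart (log2) there. The WGD- libraries at day 8 scored -0.35, -0.80 and, for replicate 3, 0.60. The WGD+ libraries scored 0.22, 0.52 and, for replicate 3, -0.33. On this score both libraries numbered 3 lay on the side of the other genotype, while at day 14 all 6 libraries lay on their own side, from -0.88 to -0.61 in WGD- and from 0.63 to 1.07 in WGD+. The groups differed by 0.317 at day 8 (exact permutation test, two-sided p = 0.6) and by 1.58 at day 14 (p = 0.1, the smallest that 3 against 3 allows). With only the genes at least 2 apart, 3 higher and 27 lower, WGD+ replicate 3 scored 0.274 and lay on the WGD+ side, next to replicate 2 at 0.452, while WGD- replicate 3 scored 1.88 against -1.55 and -1.82 in WGD- replicates 1 and 2. Without the libraries numbered 3 the day 8 difference was 0.942, a value that leaving them out had to raise.

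Single genes, of which 3 are given here, gave a different answer for the 2 libraries. Lpar3, a receptor for lysophosphatidic acid and one of the clearest WGD- genes in the other experiments, stood at 4.01 and 3.96 in WGD- replicates 1 and 2 but at 1.06 in the library labelled WGD- replicate 3. In WGD+ it stood at 0.17, 1.04 and 0.46, so the library labelled WGD+ replicate 3 lay with its own label. Itga7, an integrin subunit for laminin, gave the same picture, with 7.23, 6.83 and 4.29 in WGD- and 4.02, 4.61 and 4.34 in WGD+. Slc7a11, a cystine importer that is higher in WGD+ at day 14 (5.93 to 6.01 against 4.34 to 4.63), was highest at day 8 in WGD- replicate 3 at 7.06 and was 5.02 in WGD+ replicate 3. Of the day 8 and day 14 libraries, WGD- replicate 3 of day 8 correlated best, across genes, with a WGD+ library of day 14 (r = 0.985). WGD- replicate 3 of day 14, which scored on its own side, also correlated best with that library (r = 0.973). Every other library of day 8 and day 14 correlated best with a library of its own labelled genotype. The best correlation therefore followed the label in most libraries, but not in every library that scored on its own side.

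A chromosome-level measure was also taken, since doubled lines lose chromosomes. Genes on chromosomes 2, 5 and 14, chosen because their median was lower in WGD+ in both vehicle experiments, were compared with the other autosomes within each library. The difference was 0.0577, 0.121 and, in replicate 3, -0.0623 in WGD-, and -0.0449, -0.0717 and, in replicate 3, 0.000995 in WGD+. At day 14 it ran from 0.0659 to 0.109 in WGD- and from -0.0878 to -0.0480 in WGD+. The library labelled WGD- replicate 3 therefore lay with or next to the WGD+ libraries on the score, on Lpar3, on Itga7 and on the chromosomes. WGD+ replicate 3 was between the genotypes on the chromosomes. It lay with the WGD- libraries on the score but not on the score of genes at least 2 apart. On Lpar3 and Itga7, both lower in WGD+, it lay with its own label. On Slc7a11, higher in WGD+ at day 14, it lay between the day 14 ranges of the genotypes. Of the score genes with the same direction at day 14, WGD+ replicate 3 lay on the WGD+ side of the day 14 midpoint in 66 of 111 lower and 4 of 38 higher genes. For the 38 higher genes, WGD+ replicates 1 and 2 did so in 6 and 17. WGD- replicates 1, 2 and 3 did so in 12, 11 and 26, so these genes did not separate the day 8 labels. Whether any library carries a wrong label was not tested, and all results below use the labels as given, with and without both libraries.

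Tissue around the tumour differed as well. In WGD+ replicate 3 the 10 skeletal muscle markers summed to 24229 CPM, against 2464 CPM in WGD- replicate 2 and 63.9 to 104 CPM in the other 4 libraries; none of the 10 was at 0 in any library. In WGD- replicate 1 the adipocyte markers summed to 2023 CPM, against 60.3 to 114 CPM in the other 5, with 3 of 10 markers at 0 in WGD+ replicate 1 and 1 in WGD- replicate 3. The fibroblast and matrix markers summed to 9211 CPM in WGD- replicate 1, to 1376 and 939 CPM in replicates 2 and 3, and to 1434, 269 and 1245 CPM in WGD+. WGD- replicate 1 and WGD+ replicate 3 also stood apart from the rest, with best correlations of 0.918 for WGD- replicate 1 and 0.941 for WGD+ replicate 3 against 0.962 or more in the other 10.

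**Figure D1:**
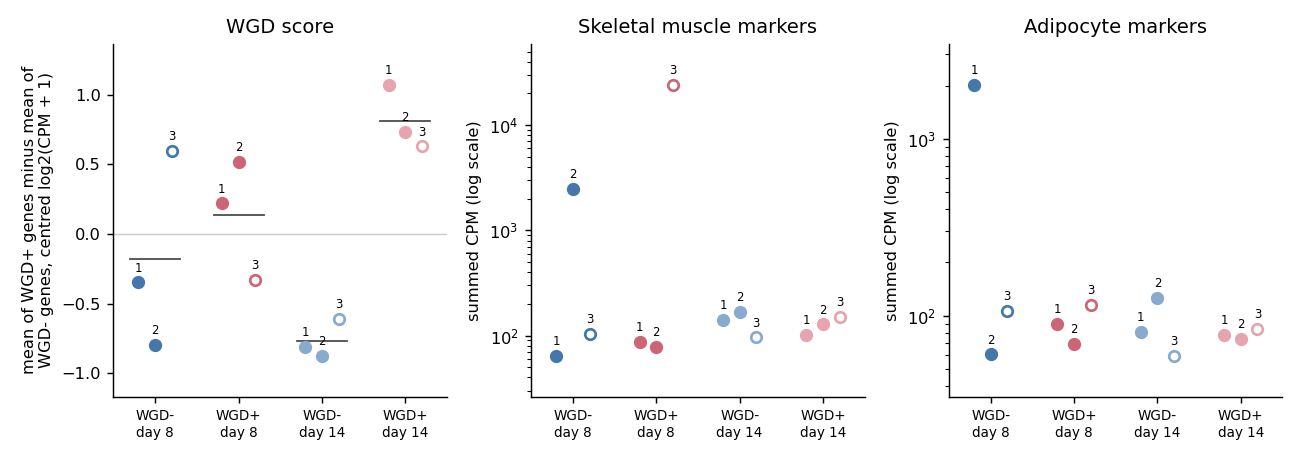
Checks of the 12 time-course libraries, 1 point a library with its replicate number, open for number 3; bars on the left are group means. The WGD score (left, log2 units) places both day 8 libraries numbered 3 with the other genotype (WGD+ replicate 3 only with this choice of genes or with called genes of any size), the skeletal muscle sum (middle, log axis) is highest in WGD+ replicate 3 at 24229 CPM, and the adipocyte sum (right, log axis) is highest in WGD- replicate 1 at 2023 CPM.

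Across all 6 libraries, 457 of 13478 genes tested (3.39%) differed between the genotypes at an adjusted p under 0.05 in the limma fit, 64 higher in WGD+ (0.475%) and 393 lower (2.92%). Without both libraries numbered 3, 39 genes (0.289%) passed, 6 higher (0.0445%) and 33 lower (0.245%). The lists shared 25 genes, 5.47% of the first and 64.1% of the second. This second set is no independent test, because the libraries were left out for how they scored in these data.

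These calls rest on few libraries. The fit takes its spread from all 12 time-course libraries, and with only the 6 day 8 libraries in it no gene passed, although 1956 had an unadjusted p under 0.05 against 2724 in the full fit. Leaving out WGD+ replicate 3, the library with muscle, left no gene called (2238 at an unadjusted p under 0.05), with adjusted p of 0.0605 or more for all 457. All 457 kept their direction and an unadjusted p under 0.05 in that limma fit. They were chosen with the same remaining libraries, so this is no independent test. Leaving out WGD+ replicate 1 left 10 genes, WGD- replicate 2 left 60, WGD- replicate 1 left 117, WGD- replicate 3 left 246, and WGD+ replicate 2 gave 680. None of the 457 was called in all 6 of these fits, since the fit without WGD+ replicate 3 called no gene. Of the 47 called genes that the naming rule picks, 16, 10 and 27 were called without WGD- replicate 1, 2 or 3, and 6, 38 and 0 without WGD+ replicate 1, 2 or 3, all 47 keeping their direction. Voom on the recovered whole reads called 188. Below, rose, fell and called refer to the fit with all libraries unless the other is named.

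**Figure D2:**
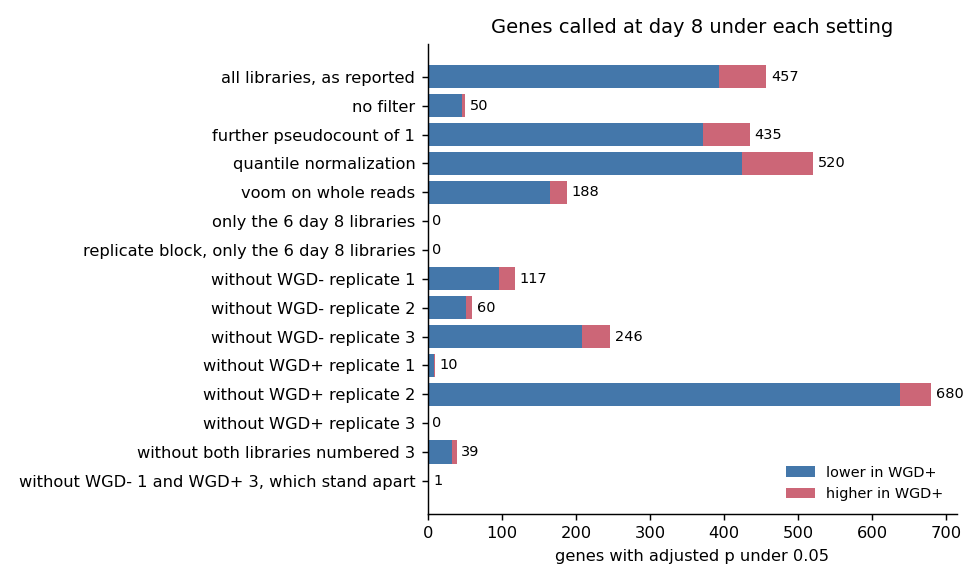
Number of genes called at day 8 (adjusted p under 0.05) under each setting, blue for lower and red for higher in WGD+. The count is 457 with all libraries, 39 without both libraries numbered 3 and 0 without WGD+ replicate 3 or with only the day 8 libraries in the fit.

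The genes higher in WGD+ were led by interferon targets. By the naming rule, the 10 largest were Ifi44l, Ifi44, Gbp5, Btnl2, Fcrlb, Ifit3b, Gbp3, Gbp9, Ifit2 and Irgm1, of which 8 belong to interferon-induced families. Gbp5, a guanylate-binding protein of the interferon-gamma response, stood at 1.27, 1.49 and 2.30 in WGD- and at 4.03, 4.44 and 3.62 in WGD+. The groups did not overlap, which the naming rule requires, and the difference was 2.34 ± 0.51 (SE, adjusted p = 0.0337). Without both libraries numbered 3 it was 2.85 ± 0.62, with an adjusted p of 0.079.

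Irgm1, an immunity-related GTPase that acts on intracellular vacuoles, stood at 5.03, 4.55 and 4.78 in WGD- and at 6.02, 6.95 and 6.01 in WGD+. The difference was 1.54 ± 0.32 (adjusted p = 0.0301). Gbp3 stood at 3.78, 2.96 and 3.72 in WGD- and at 4.90, 5.87 and 5.19 in WGD+, a difference of 1.84 ± 0.44 (adjusted p = 0.0451). The other Gbp gene of the rule, Gbp9, was 1.67 ± 0.34 higher (adjusted p = 0.0289). In all of these the lowest WGD+ library lay above the highest WGD- library, which the naming rule requires.

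Among targets shared with type I interferon, Ifi44 stood at 3.75, 2.66 and 3.24 in WGD- and at 5.11, 6.61 and 5.66 in WGD+, a difference of 2.58 ± 0.38 (adjusted p = 0.0196). Its neighbour Ifi44l stood at 0, 0.23 and 1.42 in WGD- and at 3.41, 3.27 and 3.64 in WGD+, with a difference of 2.89 ± 0.53 (adjusted p = 0.0259). Ifit2, an antiviral RNA-binding protein, stood at 3.89, 3.60 and 3.55 against 4.87, 5.79 and 5.35, a difference of 1.65 ± 0.32 (adjusted p = 0.0266). Ifit3b of the same family was 1.85 ± 0.40 higher (adjusted p = 0.0324). Without both libraries numbered 3 none of the 8 interferon-induced genes passed, Ifi44l coming nearest with 3.23 ± 0.61 (adjusted p = 0.0598).

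The interferon-gamma list as a whole had 19 tested genes, of which 3 rose (Gbp5, Gbp3 and Irgm1) and none fell. Of all genes tested, 0.475% rose. The median difference of the list was 1.45, against 0.03 over all genes tested. In 13 of the 19 the 3 WGD+ libraries lay above the 3 WGD- libraries, where 9.96% of all genes did. Without both libraries numbered 3 the median was 1.69 and no member passed, and without WGD+ replicate 3 alone it was 1.64 with none passing. Leaving out any 1 library left 0 or 1 member called and medians of 1.22 to 1.64. The type I interferon list had 20 tested genes, 2 called higher (Ifi44 and Ifit2), a median of 1.11 and 10 genes with separate groups in that direction. Its median was 1.24 without both libraries numbered 3, with none called.

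Genes that would mark the lymphocytes that make interferon-gamma were close to the floor in every day 8 tumour. Ifng itself stood at 0, 0.12 and 0.22 in WGD- and at 0.17, 0.28 and 0.25 in WGD+, levels of a few reads. Cd8a, a chain of the co-receptor of cytotoxic T cells, stood at 0.14, 0.23 and 0.59 in WGD- and at 0.69, 1.43 and 1.20 in WGD+, a difference of 0.79 ± 0.58 (adjusted p = 0.475). The 14 genes of the cytotoxic lymphocyte list summed to 6.89 to 12.1 CPM in WGD- and 16.5 to 21.8 CPM in WGD+, with 2 to 4 members at 0 in WGD- libraries and 1 or 2 in WGD+, and none was called (median 0.30). Gzmb, a granule protease, stood at 0.27, 0.12 and 1.33 against 2.20, 2.06 and 2.18 (difference 1.57 ± 0.50, adjusted p = 0.104). The T cell list had no call of 15 (median 0.42), with 6 of 15 at 0 in WGD- replicates 1 and 2 and sums of 82.3 to 178 CPM in WGD- and 78.0 to 112 CPM in WGD+. The macrophage list had no call of 14 (median 0.06), with sums of 293 to 1603 CPM and 538 to 2010 CPM. Their part in the interferon difference was not tested.

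Antigen presentation did not pass the test at day 8. None of 12 genes of the class I list was called, with a median of 0.45. The median was 1.11 without both libraries numbered 3, with none called. Leaving out either genotype's replicate 2 lowered it to 0.16 (WGD-) and 0.19 (WGD+), and leaving out either replicate 3 raised it to 0.81 (WGD-) and 0.82 (WGD+), again with none called. Psmb8, a subunit of the immunoproteasome, stood at 6.27, 5.05 and 5.82 in WGD- and at 6.76, 6.95 and 6.89 in WGD+ (difference 1.15 ± 0.42, adjusted p = 0.157). B2m, the light chain of class I, stood at 9.29, 7.88 and 8.82 against 8.72, 9.42 and 8.13, with overlapping groups (0.10 ± 0.46, adjusted p = 0.929). Cd274, which encodes PD-L1, stood at 2.82, 1.49 and 2.57 against 3.80, 3.88 and 2.79 (1.20 ± 0.66, adjusted p = 0.333). Cxcl9, a chemokine for T cells, stood at 2.22, 1.65 and 2.40 against 3.48, 3.78 and 3.53 (1.51 ± 0.65, adjusted p = 0.22). Ciita, the switch of class II genes, was 1.53 ± 0.45 higher, with an adjusted p of 0.0833.

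**Figure D3:**
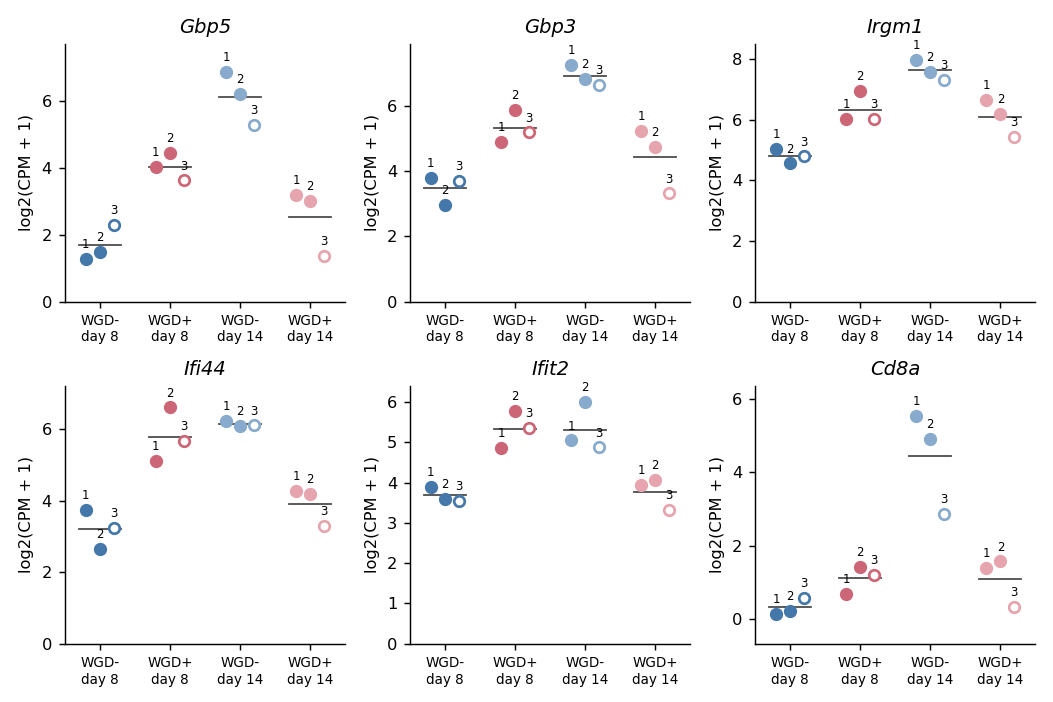
Levels of 5 interferon targets and Cd8a in log2(CPM + 1), 1 point a library with its replicate number, open for number 3, bars for group means. The 5 targets are higher in all WGD+ than in all WGD- tumours at day 8, which the naming rule requires. By the group mean they are lower in WGD+ at day 14. Cd8a stays at 1.43 or less in all day 8 libraries.

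Other genes higher in WGD+ were few. Ccng1, a cyclin that is a direct target of p53, stood at 7.08, 7.09 and 7.23 in WGD- and at 8.09, 8.63 and 8.30 in WGD+, a difference of 1.21 ± 0.26 (adjusted p = 0.0335). It was the single call of 12 genes in the p53 target list, against 0.475% of all genes called higher. Ccng1 was not called without both libraries numbered 3, nor in any fit that left out a single day 8 library. The median of the list was 0.45. Kat2b, a histone acetyltransferase, stood at 3.89, 3.51 and 3.90 against 4.87, 5.16 and 5.17, and passed with all libraries (1.30 ± 0.18, adjusted p = 0.0188) and without both numbered 3 (1.32 ± 0.22, adjusted p = 0.0495). Taf13, a subunit of the general transcription factor TFIID, did the same with 0.78 ± 0.15 (adjusted p = 0.0281) and 0.94 ± 0.15 (adjusted p = 0.0495). Btnl2, a butyrophilin-like protein, and Fcrlb, an Fc receptor-like protein, were 2.31 ± 0.54 and 2.08 ± 0.52 higher (adjusted p = 0.04 and 0.0488). Neither was called without both libraries numbered 3.

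Rnase2a, Krt90 and Atp6v1c2 were called higher without both libraries numbered 3 and not with all libraries. Rnase2a and Atp6v1c2 were also called without WGD- replicate 3 alone (adjusted p = 0.0207 for each). That fit leaves out 1 of the same libraries and is no independent test. Rnase2a, an eosinophil-type ribonuclease, stood at 0 and 0.12 in WGD- replicates 1 and 2, at 3.98 in replicate 3, and at 4.22, 2.92 and 2.79 in WGD+. The difference was 1.95 ± 0.88 with all libraries (adjusted p = 0.241) and 3.51 ± 0.52 without those numbered 3 (adjusted p = 0.0402). Atp6v1c2, a subunit of the proton pump, moved from 1.26 ± 0.40 (adjusted p = 0.106) to 1.95 ± 0.31 (adjusted p = 0.0492). In both, the library labelled WGD- replicate 3 lay in the WGD+ range. Krt90 stood at 5.76 in WGD- replicate 3 and at 1.99 in WGD+ replicate 3, the highest and the lowest of the 6, and was 2.69 ± 0.40 higher without them (adjusted p = 0.0443).

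The larger group, the genes lower in WGD+, held targets of low oxygen, growth factor signalling and matrix. Vegfa, the main growth factor of blood vessels, stood at 10.001, 7.71 and 8.21 in WGD- and at 6.09, 6.21 and 6.31 in WGD+. The difference was -2.44 ± 0.51 (adjusted p = 0.0329). Slc2a1, the glucose transporter GLUT1, stood at 11.1, 10.3 and 10.3 against 8.85, 8.91 and 7.91, a difference of -2.0 ± 0.36 (adjusted p = 0.0259). Car9, a carbonic anhydrase that is among the most oxygen-dependent genes known, stood at 7.06, 4.73 and 5.28 against 3.60, 3.62 and 3.46 (-2.13 ± 0.49, adjusted p = 0.0429). In each, the 3 WGD+ libraries lay together below all WGD- libraries, and WGD- replicate 1 was the highest.

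These 3 were the calls among 13 tested genes of the hypoxia and glycolysis list, none of which rose. Of all genes tested, 2.92% fell. The median difference of the list was -1.18, and in 10 of 13 genes the WGD+ libraries lay below all WGD- libraries, where 11.7% of all genes did. The median was -0.56 without WGD- replicate 1, the library with adipocyte and fibroblast RNA, with 2 members called, and -1.58 without both libraries numbered 3, with none. Without both libraries that stood apart (WGD- replicate 1 and WGD+ replicate 3), an alternative added after the data were seen, it was -0.41 with none. Without WGD+ replicate 1 or 3 no member was called either. The summed levels of the list overlapped, from 8587 to 15433 CPM in WGD- and from 6725 to 9625 CPM in WGD+, with the WGD+ maximum in replicate 3.

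In the growth factor list 5 of 12 genes fell, where 2.92% of all genes did, and none rose, with a median of -1.21. Fgfr1, a receptor for fibroblast growth factors, stood at 8.17, 8.07 and 7.85 in WGD- and at 6.42, 6.31 and 5.90 in WGD+, a difference of -1.82 ± 0.33 (adjusted p = 0.0259). Areg, a ligand of the EGF receptor that drives mammary duct growth, stood at 5.11, 6.13 and 5.21 against 3.75, 3.94 and 3.81 (-1.65 ± 0.26, adjusted p = 0.0212). Igf1r and Erbb2, receptors for insulin-like growth factor and of the EGF receptor family, fell by 1.34 ± 0.28 and 1.20 ± 0.26 (adjusted p = 0.0312 and 0.0335). Hbegf, a further EGF receptor ligand, was the fifth, at -1.12 ± 0.22 (adjusted p = 0.0269). No member was called without both libraries numbered 3, where the median was -1.33, or without WGD+ replicate 3, where it was -1.05. Without WGD- replicate 1 it was -0.84 with 1 call, and without WGD+ replicate 1 it was -1.22 with none.

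Nrg2, a ligand of the same receptor family, stood at 4.28, 4.61 and 3.64 against 1.94, 2.44 and 1.60 (-2.18 ± 0.51, adjusted p = 0.043). Sema3b, a secreted semaphorin, stood at 6.77, 6.66 and 7.02 against 5.07, 4.47 and 4.02, and fell both with all libraries (-2.30 ± 0.29, adjusted p = 0.0188) and without both numbered 3 (-1.95 ± 0.32, adjusted p = 0.0495). Slc14a1, a urea transporter, had the largest difference of the rule, with 7.42, 6.79 and 5.84 against 4.49, 3.03 and 3.11 (-3.14 ± 0.49, adjusted p = 0.0212; without both numbered 3 -3.34 ± 0.54, adjusted p = 0.0495). Ackr3, a scavenger of the chemokine CXCL12, Scara5, a ferritin receptor, and Megf6 fell by 2.10, 2.38 and 2.22, with adjusted p of 0.0212, 0.0251 and 0.0272. Nrg2, Ackr3, Scara5 and Megf6 were not called without both libraries numbered 3.

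Matrix genes were lower in WGD+ on average, with 2 of 14 called lower, where 2.92% of all genes were. Col6a3, a chain of collagen VI, stood at 7.60, 6.53 and 6.16 in WGD- and at 5.61, 4.45 and 4.77 in WGD+ (-1.82 ± 0.43, adjusted p = 0.0432). Pdgfrb, a receptor of fibroblasts and pericytes, stood at 5.18, 4.42 and 4.62 against 3.38, 2.23 and 3.33 (-1.76 ± 0.35, adjusted p = 0.0272). All 14 differences of the fibroblast list were below 0, with a median of -1.62, but the summed markers overlapped between the groups and were highest in WGD- replicate 1, as given above. Without that library the median was -0.72 and no member passed. The median was -2.23 without both libraries numbered 3, again with no call.

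Beyond this list, Col6a2 fell by 2.12 ± 0.47 (adjusted p = 0.0356), and was not called without both libraries numbered 3. Aebp1, a secreted collagen-binding protein, stood at 8.03, 7.70 and 6.80 against 5.61, 5.06 and 5.63, and fell with all libraries (-2.08 ± 0.31, adjusted p = 0.0196) and without both numbered 3 (-2.53 ± 0.30, adjusted p = 0.0175). The basement membrane collagens Col4a1 and Col4a2 stood at 9.27, 8.77 and 7.69 and at 8.38, 8.02 and 7.02 in WGD-, against 6.91, 7.12 and 6.37 and 6.28, 6.51 and 5.21 in WGD+. They fell with all libraries by 1.78 ± 0.35 and 1.81 ± 0.38 (adjusted p = 0.0281 and 0.0324) and without both numbered 3 by 2.01 ± 0.27 and 1.80 ± 0.26 (adjusted p = 0.0306 and 0.0361). Antxr1, a receptor for collagen VI, fell by 1.63 ± 0.20 and 1.54 ± 0.25 in the 2 fits (adjusted p = 0.0188 and 0.0495).

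Single members of further lists fell with all libraries, where 2.92% of all genes did. In the stress list, 3 of 12 fell: Hspa5, the chief chaperone of the endoplasmic reticulum, stood at 9.84, 9.87 and 9.17 against 8.56, 8.69 and 7.62 (-1.34 ± 0.29, adjusted p = 0.0335), and the stress factors Ddit3 and Trib3 fell by 1.05 ± 0.26 and 1.04 ± 0.20 (adjusted p = 0.0464 and 0.0261). The median of this list was -0.54. Tgfbr2 and Ltbp1 of the TGF-beta pathway fell by 1.29 ± 0.32 and 1.94 ± 0.40 (adjusted p = 0.0482 and 0.0296), and the plasminogen activator Plat, the protease Mmp14 and the integrin subunit Itga5 fell by 1.66, 0.99 and 0.99 (adjusted p = 0.0286, 0.0436 and 0.0451). None of these was called without both libraries numbered 3, where the smallest adjusted p among them was that of Hspa5 and of Plat, 0.0598 each.

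**Figure D4:**
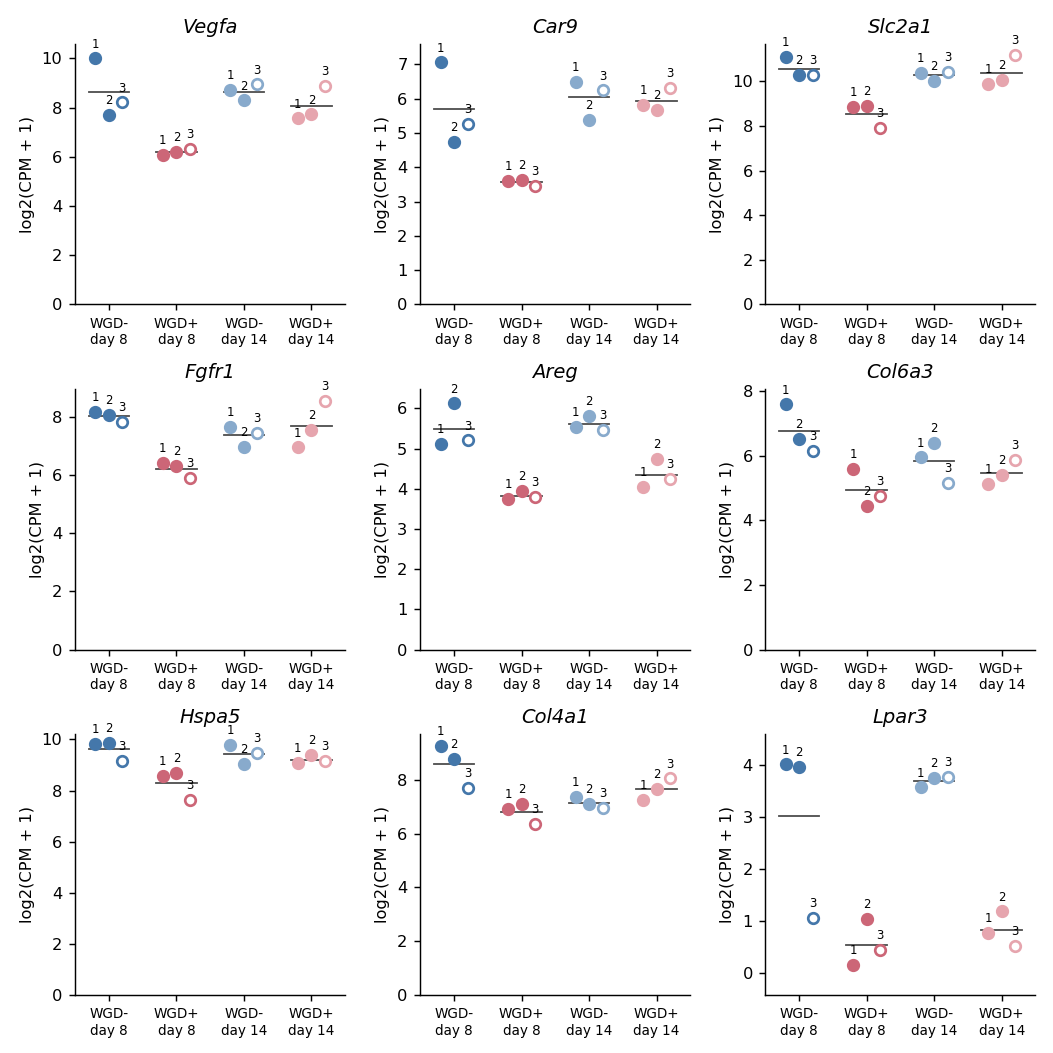
Levels of 9 genes in log2(CPM + 1), 1 point a library with its replicate number, open for number 3, bars for group means. In the first 8 panels all WGD+ libraries lie below all WGD- libraries at day 8 while the groups overlap at day 14, except Areg, which stays separate; Lpar3 is separate at both days, with WGD- replicate 3 at 1.06 close to the WGD+ libraries.

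Of the 33 genes called lower without both libraries numbered 3, WGD- replicate 3 lay nearer the WGD+ libraries in 14, and WGD+ replicate 3 nearer its own in 28. Lpar3 was the clearest, with -3.38 ± 0.38 (adjusted p = 0.0175) against -2.46 ± 0.63 with all libraries (adjusted p = 0.0543), followed by Itga7 with -2.71 ± 0.29 (adjusted p = 0.0175) against -1.79 ± 0.60 (adjusted p = 0.128). Ptgs2, the inducible cyclooxygenase COX-2, stood at 6.68, 4.73 and 3.72 against 2.31, 2.65 and 3.51 and was called without them and not with all libraries (-3.22 ± 0.49, adjusted p = 0.0492). So was Cytl1, a small secreted protein, at 6.13, 6.11 and 2.91 against 1.74, 1.98 and 1.51 (-4.26 ± 0.69, adjusted p = 0.0495). Ncam1, a neural cell adhesion molecule, stood at 6.54, 5.62 and 3.94 against 4.05, 3.36 and 4.57 (-2.38 ± 0.31, adjusted p = 0.0306). Each of these 5 genes was also called without WGD- replicate 3 alone, with adjusted p from 0.00421 to 0.0244. The genes were chosen in a fit that already left this library out, so this is no independent test.

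Car3, Ndrg2 and Tpm2, all expressed in skeletal muscle, were called there too, by -6.01 ± 0.81, -3.59 ± 0.51 and -2.76 ± 0.36 (adjusted p = 0.0361, 0.0361 and 0.0306). Their levels in the left-out WGD+ replicate 3 were 9.89, 7.66 and 10.3, the highest of the 6 libraries, beside its muscle markers. Car3 is also a gene of fat, and its 9.64 in WGD- replicate 1 stands beside the adipocyte markers of that library. With all libraries the 3 differences were -1.59, -0.58 and -0.26, with overlapping groups. The part of muscle and fat in these calls was not tested.

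Proliferation and housekeeping lists held no call. Mki67, a marker of cycling cells, stood at 8.44, 9.0 and 8.59 in WGD- and at 8.37, 8.86 and 7.99 in WGD+ (-0.27 ± 0.22, adjusted p = 0.52). Birc5, the survivin gene, stood at 6.66, 7.20 and 7.48 against 7.30, 7.09 and 7.19 (0.08 ± 0.20, adjusted p = 0.856). No gene was called of 15 in the G2/M list (median 0.14), 15 in DNA replication (0.20), 10 in the spindle checkpoint (0.20), 12 in the respiratory chain (0.19) or 13 in the cytosolic ribosome (-0.13). None of their members passed without both libraries numbered 3 either.

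The base composition of genes moved with the comparison. Called lower genes had a median GC content of 53.8% and called higher genes of 44.3%, against 50.4% of all tested. The share called lower ran from 1.01% in the quintile of genes with the least GC to 5.08% in the quintile with the most. Within each library, genes of the highest quintile minus genes of the lowest gave -0.235, -0.322 and -0.1002 in WGD+ and 0.0720, -0.0278 and 0.143 in WGD-, so the groups did not overlap. At day 14 the order was the opposite, with 0.105 to 0.161 in WGD+ and -0.190 to 0.0946 in WGD-. The part of base composition in the calls was not tested.

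The day 8 differences were then set beside day 14. The genotypes differed in 60 genes at day 14 (0.445%), 6 higher (0.0445%) and 54 lower (0.401%), and 5 of them were among the 457 of day 8, all 5 in the opposite direction. Of the 39 genes called without both libraries numbered 3, 1 was called at day 14, in the same direction. The interferon lists had the opposite sign there. The median of the interferon-gamma list was 1.45 at day 8 and -2.48 at day 14, where 8 members were called lower, and that of the type I list was 1.11 and -1.53. Gbp5 stood at 6.87, 6.20 and 5.29 in WGD- and at 3.20, 3.0 and 1.37 in WGD+ at day 14 (-3.60, adjusted p = 0.0252). Its WGD- level was therefore higher at day 14 than at day 8 in every library, while the WGD+ libraries of the 2 days lay at 3.62 to 4.44 and 1.37 to 3.20.

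The difference between the days was tested directly, as an interaction. It passed in 461 genes (3.42%), 247 more positive at day 8 (1.83%) and 214 more negative (1.59%), and in 25 genes (0.185%) without both libraries numbered 3, 17 more positive (0.126%) and 8 more negative (0.0594%). Leaving out WGD+ replicate 1 left 110, WGD- replicate 3 left 187 and WGD+ replicate 3 left 189, while leaving out WGD- replicate 1 gave 797 and WGD+ replicate 2 gave 712. Of the interferon-gamma list 14 of 19 passed, all more positive at day 8, and 2 passed without both libraries numbered 3. Without WGD+ replicate 3 alone 12 passed. By the naming rule Gbp5 had the largest interaction, 5.94 ± 0.72 (adjusted p = 0.00745) with all libraries and 6.45 without those numbered 3 (adjusted p = 0.0381).

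Further positive interactions named by the rule were myeloid, interferon and cytotoxic genes. Clec7a, the receptor Dectin-1 of myeloid cells, stood at 2.28, 2.98 and 2.90 in WGD- and at 5.26, 5.13 and 4.89 in WGD+ at day 8, and at 6.37, 7.43 and 5.56 against 4.29, 3.83 and 1.51 at day 14. Its interaction was 5.62 ± 0.91 (adjusted p = 0.0196). Gbp2b and Ifi47 had 5.54 ± 0.91 and 5.52 ± 0.84 (adjusted p = 0.02 and 0.0161). Gzmb and Gbp10 passed in both fits, with 5.56 and 5.19 without the libraries numbered 3 (adjusted p = 0.0381 and 0.0398). Cd8a stood at 5.53, 4.90 and 2.87 in WGD- and at 1.40, 1.57 and 0.34 in WGD+ at day 14, and had an interaction of 4.12 ± 0.82 (adjusted p = 0.025). Of the cytotoxic list 5 of 11 tested passed, where 1.83% of all genes did in that direction. Without both libraries numbered 3, 1 passed, Gzmb.

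For some genes lower at day 8, the difference was more negative at day 8 than at day 14 by the interaction test. Fgfr1 stood at 7.67, 6.97 and 7.47 in WGD- and at 6.96, 7.56 and 8.57 in WGD+ at day 14, with an interaction of -2.14 ± 0.47 (adjusted p = 0.0331). Slc2a1 had an interaction of -2.11 ± 0.51 (adjusted p = 0.0469), from 10.01 to 10.42 in WGD- and from 9.88 to 11.2 in WGD+ at day 14. That of Vegfa was -1.85 ± 0.72 and did not pass (adjusted p = 0.164), nor did that of Car9 (-2.02 ± 0.70, adjusted p = 0.116). The most negative interactions were those of Scara5, Ggt7, Esyt3 and Papln, from -3.10 to -2.79 with adjusted p from 0.0185 to 0.0492. Without both libraries numbered 3 they were those of Col4a1, Col4a2, Antxr1 and Ephb3, from -2.51 to -2.08. The WGD- genes Lpar3 and Itga7 kept their direction at day 14 (-2.86 and -2.55, adjusted p = 0.0751 and 0.0881), with interactions of 0.40 and 0.76.

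**Figure D5:**
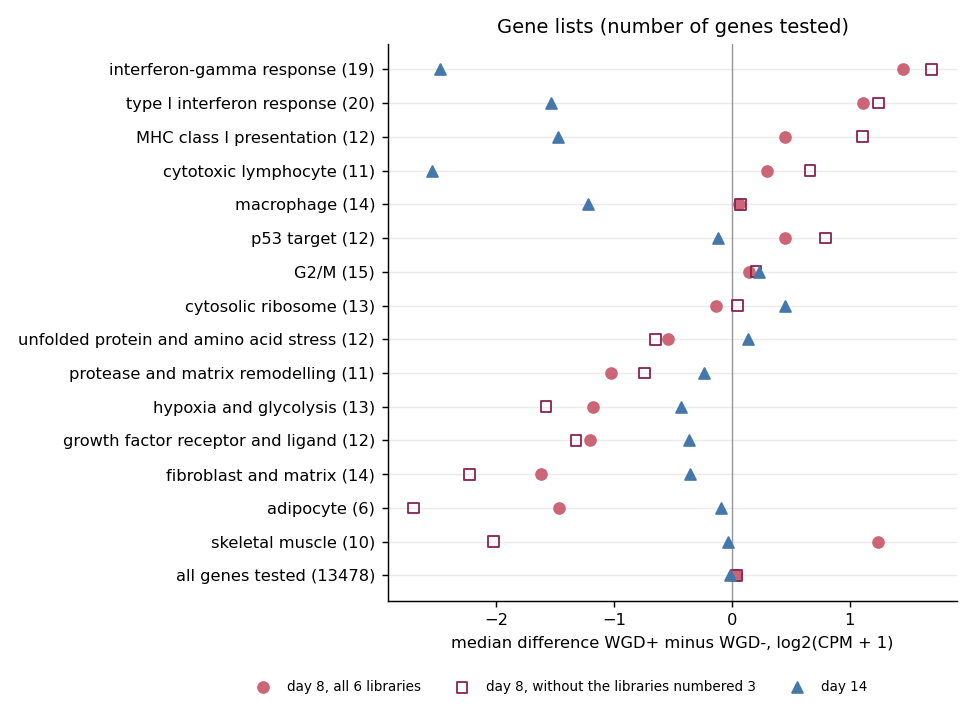
Median difference WGD+ minus WGD- of 15 gene lists and of all genes tested, in log2(CPM + 1), for day 8 with all 6 libraries (circles), day 8 without the libraries numbered 3 (squares) and day 14 (triangles), with the number of genes tested in brackets. The interferon lists are above 0 at day 8 and below 0 at day 14, and the skeletal muscle median changes sign, from 1.24 to -2.03, when the libraries numbered 3 are left out.

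The direction of the called genes was read in comparisons that share no library with day 8. The isotype, A/J vehicle and NSG vehicle groups hold 6 libraries each. Of the 393 genes lower in WGD+ at day 8, 140 were lower at day 14 (35.6%, where 51.9% of all genes were), 215 of 392 under isotype antibody (54.8%, against 48.8%), 120 in vehicle-treated A/J tumours (30.5%, against 46.9%) and 242 in the NSG host (61.6%, against 48.7%). Of the 64 higher genes, 6 were higher at day 14 (9.38%, against 48.1%), 22 under isotype antibody (34.4%, against 51.2%), 25 in A/J vehicle (39.1%, against 53.1%) and 41 in NSG (64.1%, against 51.2%). Of the 33 genes called lower without both libraries numbered 3, 19 were lower at day 14 (57.6%) and 19 under isotype antibody (57.6%). In A/J vehicle 12 of these 33 were lower (36.4%) and in NSG 24 (72.7%), beside the same shares of all genes. Of the 6 called higher in that fit, 3 were higher at day 14, 1 under isotype antibody, 3 in A/J vehicle and 3 in NSG. Each table was normalized on its own, so only differences within a table are set side by side.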

How the data were processed

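RNA was measured by stranded mRNA sequencing. The submitters' processing notes name STAR 2.5.1b, edgeR and the mm10 build, per the labels; a counting tool and an annotation are not given. The authors deposited log2 values, 1 table per experiment, with TMM (trimmed mean of M values) scaling. Read as log2(CPM + 1), they gave whole reads within 0.1 of a read for 100% of values checked, and from these the depth. Of 19176 genes, 27 symbols turned into dates were left out. Genes above 1 CPM in at least 3 of the 12 time-course libraries were fitted with limma 3.58.1 in R 4.3.3 (a mean per group, trend, robust), with Benjamini-Hochberg adjustment. Groups came from the titles. The comparison and the 43 gene lists were chosen with earlier results of these data known. Genes named are up to 10 each way with the largest change among called genes with separate groups and a mean of at least 3 in the higher one, in each fit, up to 4 called members per list (2 where none), 4 interactions each way, and genes fixed by name; Hbegf was added as the remaining member of a count. Alternatives covered the filter, pseudocount, scaling, voom, the libraries fitted and the replicate block. Code was tested on simulated data. Promoters are RefSeq's, on GRCm38.p6, the assembly behind mm10. Genes can share reads with close relatives in the Gbp, Ifi44 and Ifit families, and how the counting treated these is not known. Some genes that the rule picks are not reported here.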

Additional observations from a re-analysis of the deposited data

Results flagged for a closer look

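Of the genes picked by the naming rule, 43 are given here that had a genotype difference at day 8 that differed from the one at day 14 by the test of the difference itself, at an adjusted p under 0.05 over all genes tested by limma. They are given as the day 8 difference minus the day 14 difference, in log2(CPM + 1), with all libraries. Some of these genes were chosen by this same test, so their number is a description, and 110 to 797 genes passed it when single libraries were left out. Without both libraries numbered 3, 25 of all genes tested passed. In the 6 fits that left out 1 day 8 library, Cd274, Slc2a1 and Papln passed in 1. Ccl5, Trib3, Erbb2, Fgfr1 and Aebp1 passed in 2 of these fits, while Gbp5 and Gbp10 were among those that passed in all 6.

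The positive values, of genes relatively higher in WGD+ at day 8 than at day 14, were mostly those of immune genes. Guanylate-binding proteins and immunity-related GTPases gave Gbp5 5.94, Gbp2b 5.54, Gbp10 5.23, Gbp9 4.51, Gbp3 4.31, Ifi47 5.52 and Irgm1 3.07. Other interferon-induced genes gave Ifi44l 5.15, Ifi44 4.80, Ifit3b 3.48, Ifit2 3.18 and Zbp1 3.75. Genes of antigen presentation and its control gave Psmb8 3.45, Psme2 1.86, Ciita 3.92 and Cd274 4.19. Cytotoxic, chemokine and myeloid genes gave Cxcl9 5.44, Gzmb 5.20, Cd8a 4.12, Ccl5 3.84 and Clec7a 5.62. The remaining positive values were Btnl2 3.67, Fcrlb 3.27, Nfkbie 2.35, Kat2b 2.01 and Gclm 1.26. Krt90, a keratin, had 3.78 in the fit without both libraries numbered 3 and did not pass with all libraries.

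The negative values, of genes relatively lower in WGD+ at day 8 than at day 14, were those of matrix and its receptor genes, with Col4a1 -2.29, Col4a2 -2.35, Antxr1 -2.19, Aebp1 -1.88 and Papln -2.79. Growth factor, guidance and chemokine receptors and ligands gave Fgfr1 -2.14, Erbb2 -1.48, Ephb3 -2.50, Sema3b -1.76 and Ackr3 -2.74. The other negative values were Slc2a1 -2.11, Trib3 -1.17, Lcn2 -2.44, Scara5 -3.10, Ggt7 -3.10 and Esyt3 -3.09. Groups of 3 libraries are too small for a test of single outlying libraries, and none was made.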

How the results depend on the processing

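With all libraries, 457 genes were called. The number was 50 without the filter on low values, 188 with voom on whole reads, 0 with only the 6 day 8 libraries (1956 at an unadjusted p under 0.05), 0 to 680 when single libraries were left out, 39 without both libraries numbered 3 and 1 without the 2 libraries that stand apart (1918). Quantile normalization (520) and a further pseudocount of 1 (435) stayed within 1.5 times, and the median of all genes was 0.081 under quantile normalization against 0.032. Without both libraries numbered 3, the 39 became 9 without the filter, 14 with the pseudocount, 90 with quantile normalization, 4 with voom and 0 with only the 4 libraries (1493). The 461 interactions became 235 without the filter, 289 with voom, 110 to 797 when single libraries were left out and 25 without both numbered 3. Those 25 became 141 with quantile normalization and 0 both without the filter (2750) and with voom (2124). The 26 list members called became 2 without the filter, 10 with voom, 0 with only the day 8 libraries, 0 to 23 with single libraries left out, 3 without both numbered 3 and 0 without the 2 that stand apart. The score difference was 0.0952 with genes of either size (p = 0.9) and 1.17 with genes at least 2 apart (p = 0.4), by the exact permutation test.

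The labels do not say what the replicate numbers mark. Deviations of same-numbered libraries from their group means correlated at 0.137, 0.109 and -0.375, and those of differently numbered libraries at -0.337 to 0.353. Whether the numbers mark pairs was not tested. With the replicate block, fitted on the day 8 libraries alone, 0 genes (1925 at an unadjusted p under 0.05) and 0 list members were called with all libraries, and 180 genes without both numbered 3.

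Of the single genes, 34 values changed sign, none of a gene called with all libraries, and the cause was not tested. The values ran, when single libraries were left out, from -0.28 (without WGD- replicate 1) to 1.68 (without WGD+ replicate 3) for Krt90, from -4.14 (WGD+ 3) to 0.024 (WGD- 1) for Car3, from -2.61 (WGD+ 3) to 0.59 (WGD+ 2) for Ndrg2, from -2.09 (WGD+ 3) to 0.79 (WGD+ 2) for Tpm2 and from -3.59 (WGD- 3) to 0.061 (WGD- 1) for Adipoq. The range was -0.63 (WGD+ 3) to 1.76 (WGD+ 1) for Mb and -1.10 (WGD+ 3) to 3.13 (WGD- 2) for Tnnt3, both of muscle. It was -0.28 (WGD- 1) to 1.21 (WGD- 3) for Slc7a11, -1.28 (WGD- 2) to 0.049 (WGD- 3) for Mfge8, -0.70 (WGD- 2) to 0.30 (WGD- 3) for Stra6, -0.28 (WGD- 3) to 0.70 (WGD- 2) for Sp6, -0.15 (WGD- 1) to 0.27 (WGD- 3) for Birc5 and -0.29 (WGD- 2) to 0.41 (WGD+ 3) for B2m. Without both numbered 3 the sign changed for Mb (-0.61), Tnnt3 (-1.78), Mfge8 (0.56), Stra6 (0.16) and Sp6 (-0.56). Without the 2 that stand apart it changed for Kit (0.10), Lipe (0.077), Mb (-1.27), Tnnt3 (-1.98), Pde2a (0.11), Sp6 (-0.47) and Birc5 (-0.15).

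The depth of WGD+ replicate 3, 5.25 M (mega) reads, sets the limit for low genes, with 1 read worth 0.185 CPM there. Levels of lymphocyte genes at day 8 rest on few reads.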

Other observations

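Some lists not described above stood apart in 1 library. The mast cell list, of which 5 genes were tested and none called, summed to 89.8 CPM in WGD- replicate 1 and to 15.2 to 31.8 CPM in the other 5 libraries. Its members Kit, a receptor tyrosine kinase, and Mcpt4, a mast cell protease, stood at 5.02 and 4.16 in that library and at 2.83 or less in the others. The milk protein list summed to 101 CPM there and to 6.92 to 19.7 CPM elsewhere, with Csn3, a casein, at 6.42 against 3.26 or less. The complement and coagulation list summed to 1742 CPM there and to 258 to 409 CPM elsewhere. The pericyte and smooth muscle list was highest in WGD+ replicate 3, at 1083 CPM against 127 to 460 CPM.

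Among genes that did not pass, Cycs, which encodes cytochrome c, stood at 7.78, 8.36 and 8.12 in WGD- and at 8.70, 8.76 and 9.03 in WGD+ (0.74 ± 0.20, adjusted p = 0.0607 by limma). Lcn2, a neutrophil and epithelial iron-binding protein, stood at 9.61, 10.4 and 10.4 against 8.95, 9.36 and 8.13 (-1.34 ± 0.35, adjusted p = 0.0599). Gclm, of glutathione synthesis, stood at 5.35, 5.75 and 5.25 against 5.88, 6.42 and 6.11 (0.69 ± 0.17, adjusted p = 0.0523). In all of these the groups did not overlap, where those of 21.7% of all genes tested did not. These genes were named for the smallest p in lists without a call.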
